A study of Mus musculus with 2 samples.

Results

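Layer 6 corticothalamic neurons were sought in single-nucleus RNA data from embryonic mouse neocortex by a rule on 12 genes. A barcode with 500 or more genes was taken when at least 4 of the 8 genes Hs3st4, Htr1f, Sulf1, Nfe2l3, Tle4, Foxp2, Zfpm2 and Apcdd1 had a UMI (a uniquely tagged RNA molecule) and none was counted for Gad2, Tcerg1l, Nxph4 or Slc1a3. The nuclei were thus chosen by their own UMIs of these 12 genes. The rule took 1615 of 17198 nuclei, called gated nuclei here. They were 556 of 6467 in the library with the genotype label MEN1-F/F and 1059 of 10731 in the library labelled MEN1-NCKO. Because measured values chose the nuclei, the levels of these 12 genes are a description and support nothing.

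Neocortex was dissected from embryonic brains and frozen, and nuclear RNA was read with the 10x Genomics Chromium 3' version 3 chemistry. F/F usually denotes 2 floxed alleles of a gene and CKO a conditional knockout, but the labels do not spell out either term, the N before CKO, the Cre line, the deleted part of Men1, the embryonic age or the number of embryos per library. Men1 encodes menin, a chromatin protein that works with histone methyltransferases of the MLL family, and the series title links menin to the receptor gene Epha4 in late-born cortical neurons. There is 1 library per label, so no spread between replicates exists, no test was run, and every interval given is a 95% interval for counting error only.

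Corticothalamic neurons of layer 6 are early-born excitatory neurons whose axons leave the cortex for the thalamus and return feedback to the nuclei that supply it. Their fate depends on transcription factors such as Tbr1, Sox5 and Fezf2, and Tle4 and Foxp2 are widely used to mark them. Growing corticothalamic axons are steered by ephrins, Slits, netrins and semaphorins, and EphA4 is one of the receptors through which ephrins act.

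The gated nuclei held 2994672 UMIs in the F/F-labelled and 5616852 in the NCKO-labelled library, with medians of 4706.5 and 4281 UMIs per nucleus against 3696 and 3696.5 in the other nuclei. Mitochondrial UMIs were 0.205% and 0.231% of the total in gated nuclei. The libraries share 15 barcodes, none of them among gated nuclei. Xist, transcribed from the inactive X chromosome, was at 2186 and 2454 CPM (UMIs of a gene scaled to a common total of all UMIs in the nuclei summed), while the Y-linked gene Uty had 1 UMI in each library and Ddx3y, Kdm5d and Eif2s3y had 0. The protocol label names male mice and does not say whether this means the embryos, so these values go against it if it does.

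The targeted gene does not check the labels. Men1 had 27 UMIs in F/F-labelled and 73 in NCKO-labelled gated nuclei, which is 9.02 CPM (5.94 to 13.1) and 13.0 CPM (10.2 to 16.3). The log2 ratio of NCKO-labelled over F/F-labelled levels was 0.36, and its direction was the same in 13 of 15 other settings of the processing. It was -0.072 with nuclei thinned to 2000 UMIs before the rule and -0.31 with the sub-clusters described later weighted alike in both libraries. A count of 3' ends outside a deleted part checks nothing, and where that part lies was not known here. Directions below are between the 2 labelled libraries.

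The share of gated nuclei was 8.6% (exact Clopper-Pearson interval 7.93 to 9.31%) in the F/F-labelled and 9.87% (9.31 to 10.4%) in the NCKO-labelled library, a ratio of 1.15 (1.03 to 1.27). With each nucleus first thinned to 2000 UMIs, the shares were 9.96% of 5762 nuclei and 11.2% of 9295, and 705 and 1436 shallower nuclei were left out. The 4 excluded genes removed 459 of 1015 and 1010 of 2069 nuclei that had 4 or more gate genes, and the removed nuclei were deep, with medians of 7317 and 7235.5 UMIs. At the edge of the rule, nuclei with 4 gate genes carried 3860 and 2973 CPM of Sox5, and those with 3 gate genes and no excluded gene carried 1896 and 1863 CPM. Dpp10 was at 2942 and 3282 CPM just inside the edge and at 1692 and 1826 CPM just outside. There were 126 and 283 nuclei just inside and 198 and 398 just outside, so the rule cuts a continuous range.

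Genes that the rule did not use bore out the label only for some of the gated nuclei. Sox5, a regulator of deep-layer identity, was at 5390 and 4011 CPM in gated nuclei of the F/F- and NCKO-labelled libraries and at 1348 and 1354 CPM in the other nuclei. Tbr1, which specifies the corticothalamic fate, was at 48.4 and 55.4 CPM against 23.5 and 24.3, and Fezf2 at 39.1 and 39.2 against 12.8 and 16.6. Bcl11b, a layer 5 regulator, was near the other nuclei at 392 and 377 CPM against 382 and 373. Defining genes of other classes were not all low. Gad1 (9.02 and 14.2 CPM), Lhx6 (1.34 and 2.67), Isl1 (1.34 and 2.49), Tcf7l2 (2.0 and 3.74), Eomes (2.0 and 1.60) and Csf1r (0.668 and 1.07) were low and Gbx2 was at 0. Cux2 of upper-layer neurons (81.1 and 70.3 CPM), Reln of Cajal-Retzius cells (84.1 and 170), Ebf1 of striatal neurons (27.7 and 67.7) and the interneuron gene Adarb2 (293 and 328) were higher than those but below their levels in other nuclei. The layer 5 gene Etv1 (110 and 96.7 CPM against 47.5 and 73.0 in other nuclei) and Drd1, listed here with striatal genes (33.7 and 29.9 against 8.63 and 9.24), were above other nuclei in both libraries. So were the subplate gene Nr4a2 (32.7 and 46.1 CPM against 23.2 and 33.2) and Crym, listed with layer 5 and deep-layer genes (13.0 and 24.4 against 7.49 and 11.3). Of other subplate genes, Ccn2 was at 2.67 and 2.31 CPM against 2.58 and 3.39, and Lpar1 at 2.67 and 5.34 against 6.16 and 6.72. Cplx3 had 1 and 2 UMIs. The upper-layer gene Rorb was at 430 and 278 CPM against 378 and 296.

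The 12 genes outside the rule with the highest levels relative to other nuclei in both libraries were led by Dpp10, a subunit of Kv4 potassium channels. Dpp10 was at 8113 and 7166 CPM in gated nuclei and 1639 and 1728 CPM in other nuclei. The planar polarity gene Prickle1, the growth factor binding protein gene Igfbp3, the neurexin ligand gene Nxph3, Mctp1, the synaptotagmin gene Syt6, the dynein chain gene Dync1i1, the kainate receptor gene Grik3 and Sox5 were among the rest. So were the antisense RNA gene 9130015G15Rik and ENSMUSG00000120124, which was not found in the annotation used. Of 6100 genes with enough UMIs, 4.33% were past 1.5-fold higher and 4.18% past 1.5-fold lower in gated nuclei than in other nuclei of both libraries. Since the rule and these genes come from the same nuclei, this is a portrait and not a test.

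Clustering split the gated nuclei into 9 groups, numbered by size. Sub-clusters 2 (Tmem132c, Slc4a4, Igfbp3), 3 (Sulf1, Adamts18, Pdzrn4), 4 (Nts, Ikzf2, Sdk2) and 6 (Cdh9, Tmem132d, Nfia) had no gene of another class among their 10 leading genes. They held 327 F/F-labelled and 520 NCKO-labelled nuclei, or 58.8% and 49.1% of the gated nuclei, and are called the 4 kept sub-clusters. Cux2 was at 9.80 and 11.7 CPM in them and Ebf1 at 7.19 and 23.9. Drd1 was at 41.2 and 39.4 CPM in them and Isl1 at 0 and 1.88, so Drd1 stayed above other nuclei where Ebf1 and Isl1 were below them. The kept sub-clusters carried 6213 and 5113 CPM of Sox5 and 54.9 and 69.9 CPM of Tbr1.

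The other 5 sub-clusters each had 1 to 3 genes of another class among their 10 leading genes. Sub-cluster 1, with 84 and 242 nuclei and a median of 7247.5 UMIs, was led by Grik1, Npas3, Tafa2, Slit3 and Erbb4, and held 31 of the 35 and 104 of the 115 gated nuclei with the highest doublet scores. Nr4a2 of subplate neurons was among the leading genes of sub-cluster 7, Etv1 and Cntn6 led sub-cluster 8, and Ebf1, Rarb and Rxrg of striatal neurons led sub-cluster 9, which held 6 and 20 nuclei. In sub-cluster 5, led by Galntl6 and Spon1, Oma1 and Npy were the genes of other classes, while Sox5 was at 7532 CPM. The main results below are therefore given in the 4 kept sub-clusters too, a choice made after the data were seen.

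**Figure D1:**
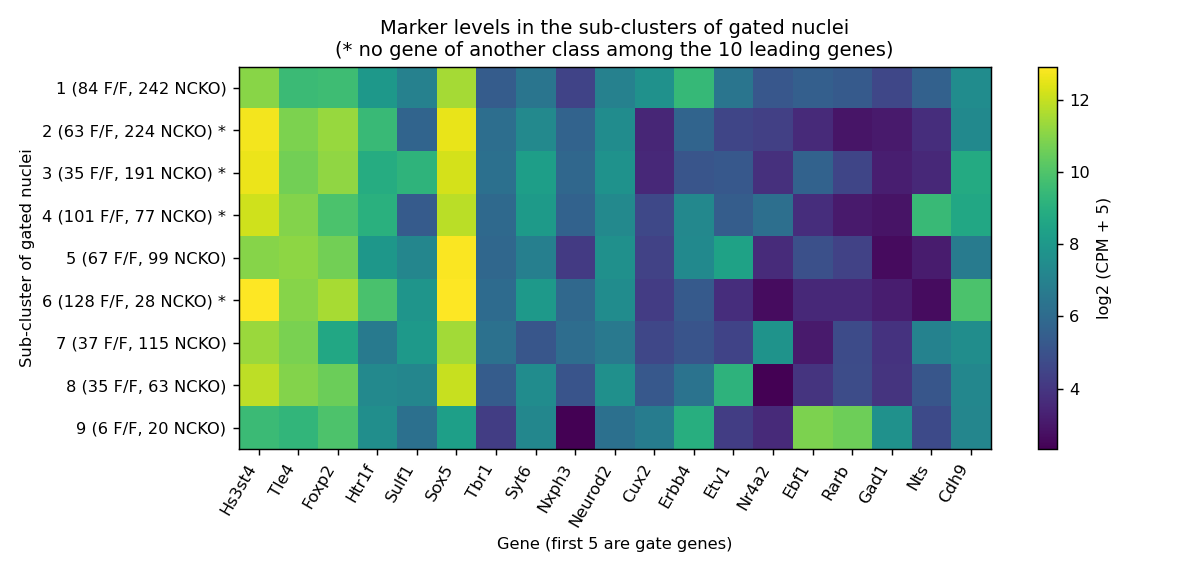
Rows are the 9 sub-clusters of gated nuclei with their number of nuclei per library, columns are genes, and colour is log2 of CPM + 5 over both libraries. Sox5 is highest in rows 2, 5 and 6, Cux2 and Erbb4 are highest in rows 1 and 9, and Ebf1 and Rarb stand out in row 9.

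The makeup of the kept sub-clusters differed between the libraries. Sub-clusters 4 and 6 held 229 of the 327 F/F-labelled nuclei, whereas sub-clusters 2 and 3 held 415 of the 520 NCKO-labelled ones. Kept nuclei were 5.06% (4.54 to 5.62%) of all F/F-labelled nuclei and 4.85% (4.45 to 5.27%) of NCKO-labelled ones, a ratio of 0.958, so the higher share of gated nuclei in the NCKO-labelled library was not seen in them. Differences in library, animal and genotype label cannot be told apart here, and sizes of sub-clusters drawn from the same genes are a description. A level over the kept sub-clusters can move with this makeup, so for the main genes their ratio is also given with the 4 sub-clusters weighted in the NCKO-labelled library as in the F/F-labelled one.

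Between the libraries, log2 of (CPM + 5) in NCKO-labelled over F/F-labelled gated nuclei was computed for 8666 genes with 100 or more UMIs. Of these, 2.88% (250 genes) were past 1.5-fold higher and 1.64% (142 genes) past 1.5-fold lower in the NCKO-labelled library. Over all genes 39.2% were below 0 and 60.8% above, the median was 0.06, and centring on it turned the split from 63.8% higher among the genes past the fold to 45.7% higher, with 165 higher and 196 lower. In the kept sub-clusters 3.18% of 5350 genes were past the fold higher and 2.64% lower. Only 81 of the 250 higher and 78 of the 142 lower genes could be looked up there, and 53 and 56 were past the fold in the same direction. The kept nuclei are part of the gated nuclei, so these counts are no independent check.

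**Figure D2:**
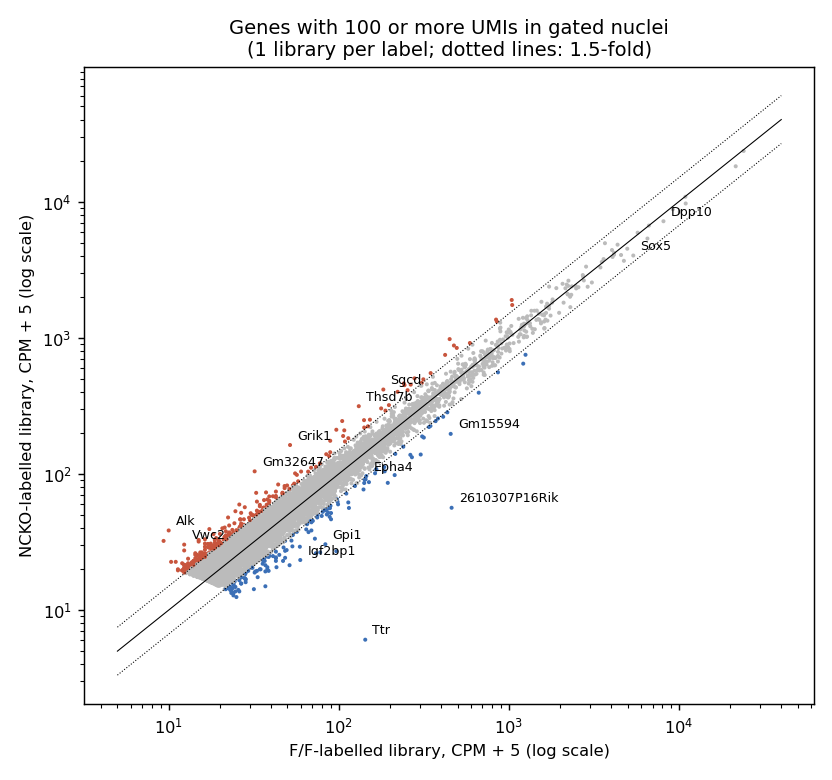
Each point is a gene with 100 or more UMIs in gated nuclei, with CPM + 5 in the F/F-labelled library on the x axis and in the NCKO-labelled library on the y axis, both on log scales. Red points are the 250 genes past 1.5-fold higher and blue points the 142 past 1.5-fold lower in the NCKO-labelled library, and 2610307P16Rik and Ttr lie farthest below the diagonal.

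Epha4, the receptor named in the series title, was lower in the NCKO-labelled library at the edge of the fold. It had 420 UMIs or 140 CPM (127 to 154) in F/F-labelled gated nuclei and 514 UMIs or 91.5 CPM (83.8 to 99.8) in NCKO-labelled ones. The log2 ratio was -0.59, and the ratio of levels 0.652 (0.572 to 0.744). In the kept sub-clusters Epha4 was at 142 and 94.8 CPM with a log2 ratio of -0.56, which is not past the fold, and weighting left it at -0.56. The direction was the same in all 15 other settings of the processing, of which 8 were past the fold.

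Epha4 was also lower in the NCKO-labelled library outside the gated nuclei, where it was more abundant. Its log2 ratio was -0.65 over all other nuclei and -0.72 in nuclei taken by an upper-layer rule (264 and 159 CPM), but 0.08 in nuclei taken by a layer 5 rule (71.6 and 76.0 CPM). Whether these values differ from the gated nuclei was not tested. Of the 9 sub-clusters, 8 had a ratio of Epha4 below 0. The exception was sub-cluster 3, at 33.8 CPM (5 UMIs) in F/F-labelled and 113 CPM (87 UMIs) in NCKO-labelled nuclei. In sub-cluster 2 Epha4 was at 148 and 68.1 CPM, in sub-cluster 4 at 186 and 128, and in sub-cluster 6 at 128 and 74.0, the last from 79 and 9 UMIs.

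**Figure D3:**
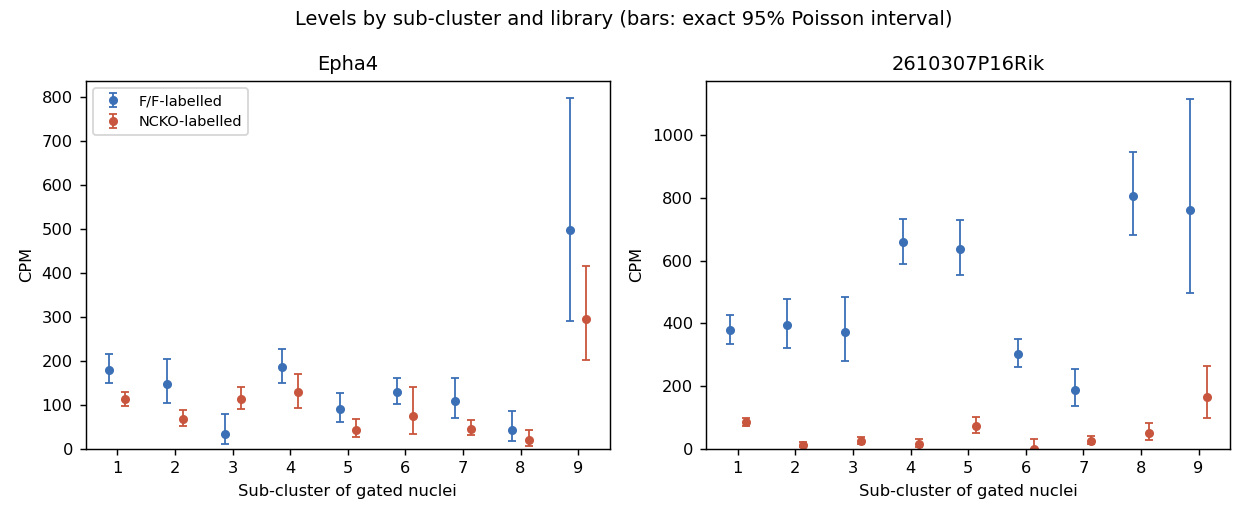
Points are CPM of Epha4 (left) and 2610307P16Rik (right) in each sub-cluster of gated nuclei, in blue for the F/F-labelled and in red for the NCKO-labelled library, with exact 95% Poisson intervals. The red points of 2610307P16Rik lie below the blue ones in all 9 sub-clusters, and Epha4 is higher in red only in sub-cluster 3.

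Of 15 Eph receptor and ephrin genes tested, Epha4 alone was past the fold, beside 1.64% of all genes lower and 2.88% higher. Below 0 were 11, beside 39.2% of all genes, and the median was -0.18. In the kept sub-clusters 11 were tested and 3 were past the fold lower, beside 2.64% of all genes there. The median was -0.13, or -0.035 with the weighting. The 3 were the receptor genes Epha3 (417 and 155 CPM, -1.40), Epha5 (1439 and 828 CPM, -0.79) and Epha6 (172 and 92.9 CPM, -0.86). Over all gated nuclei the same genes were at -0.34, -0.30 and 0.07. With the weighting they were at -1.09, -0.82 and -0.18, so the value of Epha6 moved most with the makeup. The ligand genes Efna5 and Efnb2 were at -0.28 and 0.27 in gated nuclei and at -0.35 and -0.08 in the kept sub-clusters.

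Receptor genes of the Slit and netrin cues, Robo2 and Dcc, had lower ratios in the kept sub-clusters than over all gated nuclei. Of 18 Slit, Robo, netrin, Dcc and Unc5 genes, Slit2, Slit3 and Unc5c were past the fold higher and Ntn4 lower in gated nuclei. The shares of all genes past it were 2.88% and 1.64%. Slit2, Slit3 and Unc5c were at 0.12, -0.40 and -0.05 in the kept sub-clusters. There, Robo2, a Slit receptor, was at 1640 and 712 CPM (-1.20) and Dcc, a netrin receptor, at 1720 and 902 CPM (-0.93), and with the weighting they were at -0.58 and -1.28. Dcc had a ratio below 0 in each of the 9 sub-clusters, past the fold in 4 of them. Its lowest ratio was in sub-cluster 6, at 1534 and 370 CPM (-2.04), and in sub-cluster 3 it was level, at 1521 and 1443 CPM. Semaphorins, plexins and neuropilins had a median of 0.04 over 25 genes, with Sema3a at 0.74 in gated nuclei and 0.00 in the kept sub-clusters.

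The lowest gene whose UMIs were not mostly in 1 nucleus was the noncoding RNA gene 2610307P16Rik at chr13:28460034-28885620 on the minus strand of GRCm38. Its nearest coding gene in the annotation is Sox4, a transcription factor of immature neurons, 63299 bases away. It had 1366 UMIs or 456 CPM (432 to 481) in F/F-labelled and 289 UMIs or 51.5 CPM (45.7 to 57.7) in NCKO-labelled gated nuclei, a log2 ratio of -3.03. The difference was larger in the kept sub-clusters, at 443 and 16.4 CPM (678 and 35 UMIs, -4.39, and -4.99 with the weighting). In sub-cluster 6 it had 186 UMIs in F/F-labelled and 0 in NCKO-labelled nuclei, which is 302 CPM (260 to 349) and a level of up to 30.3 CPM by the exact Poisson interval. In sub-cluster 4 it was at 658 and 13.9 CPM, and in sub-cluster 8 at 804 and 49.9.

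2610307P16Rik was lower in the NCKO-labelled library outside the gated nuclei too. The log2 ratio was -1.50 over all other nuclei (610 and 212 CPM), -1.62 under the upper-layer rule and -2.69 under the layer 5 rule. The spread of ratios over these groups was not tested. Gm40841, a noncoding RNA gene on the same strand at chr13:28394453-28420066, was at 299 and 134 CPM (-1.13) in gated nuclei. Sox4 itself was at 177 and 153 CPM (-0.20).

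Some transcripts of a list drawn up around both Sox4 and the Pou3f genes were lower. Pou3f3 is a POU transcription factor gene of later-born cortical neurons. The list mixes loci, so its values do not describe the surroundings of Pou3f3 alone. The 9 listed transcripts are those of Pou3f2, Pou3f3, Sox4, Sox11 and noncoding RNA genes. Of them, 5 were past the fold lower, 2610307P16Rik included, and none higher, beside 1.64% and 2.88% of all genes. The list was chosen with earlier results of these data known, and 2610307P16Rik and Gm28175 are among the 15 lowest genes. The median was -0.72, with -0.72 in other nuclei too. The median was -0.26 over the 6 tested in the kept sub-clusters, -0.33 with the weighting, and -0.048 with nuclei thinned to 2000 UMIs before the rule. Gm28175, 391356 bases from Pou3f3 at chr1:42261855-42304412, was at 68.5 and 21.2 CPM (-1.49). Gm29260 was at -0.81, Pantr1 at -0.80 (-0.26 with the weighting) and A330102I10Rik at -0.72, while Pou3f3 was at -0.41, Sox11 at -0.09 and Pou3f2 at 0.11. Of those 6, 2 were past the fold lower in the kept sub-clusters, 2610307P16Rik and A330102I10Rik (-0.82). Without knowledge of strand in the counting, overlapping transcripts cannot be told apart.

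Some genes of developmental timing were lower in the NCKO-labelled library. Igf2bp1, an RNA-binding protein gene of early progenitors and a target of let-7, was at 54.4 and 18.3 CPM (163 and 103 UMIs, -1.35), and was below 0 in all 9 sub-clusters. Its ratio in the kept sub-clusters was -0.95, or -1.08 with the weighting. Mir99ahg, the host transcript of let-7 and miR-99 family microRNAs, was at 1211 and 641 CPM (-0.91), past the fold lower in 7 sub-clusters and below 0 in all 9. Nfia, a nuclear factor that drives the turn to glial fates and is also present in deep-layer neurons, was at 1249 and 745 CPM (-0.74). It is a leading gene of sub-cluster 6, was below 0 in all 9 sub-clusters, and was at -0.58 in the kept ones and -0.43 with the weighting, both short of the fold. Of 9 such genes tested 3 were past the fold lower, beside 1.64% of all genes. Below 0 were 8, beside 39.2% of all genes, and the median was -0.46 against -0.71 in other nuclei. Lin28b was at 43.4 and 28.1 CPM (-0.55) in gated nuclei and at 43.1 and 20.7 CPM (-0.91) in the kept sub-clusters (-2.02 with the weighting, from 66 and 44 UMIs), and Nfib was at -0.46.

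Of 19 genes of glycolysis and the response to low oxygen, 7 were past the fold lower in the NCKO-labelled library and none higher. The shares of all genes were 1.64% and 2.88%. Below 0 were 17, beside 39.2% of all genes, and the median was -0.43, beside 0.06 over all genes. The median was -0.42 in the kept sub-clusters and -0.60 in other nuclei, so the gated nuclei did not stand apart. The list was known to be low in these libraries when it was chosen.

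Enzymes and secreted factors were both among the 7. Gpi1, which turns glucose 6-phosphate into fructose 6-phosphate, had 235 and 143 UMIs or 78.5 and 25.5 CPM (-1.45). It was lower in all 9 sub-clusters, and at 68.6 and 11.3 CPM (-2.18) in the kept ones, with -2.71 after weighting. The collagen prolyl hydroxylase gene P4ha1 was at 189 and 81.0 CPM (-1.18), and the angiogenic factor gene Vegfa at 67.5 and 28.5 CPM (-1.11). Eno1 was at -1.06, the lactate dehydrogenase gene Ldha at 33.1 and 15.7 CPM (-0.88), the pyruvate dehydrogenase kinase gene Pdk1 at -0.83 and Tpi1 at -0.65. The others ran from Gapdh at -0.54 to Pfkm at 0.04 and Pfkfb4 at 0.21.

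Hypoxia-inducible factors bind a core of ACGTG or GCGTG, and windows before the start of 3 of these genes are shown because they hold many, few or no such letters. Each is the 250 bases before a RefSeq start in GRCm38.p6, read 5′ to 3′ on the gene's strand, with matches to ACGTG or GCGTG on either strand in capitals. The palindrome CACGTG counts once for each strand. The Ldha window is chr7:46845554-46845803 on the plus strand, the P4ha1 window chr10:59323046-59323295 on the plus strand and the Gpi1 window chr7:34230337-34230586 on the minus strand.
Ldha: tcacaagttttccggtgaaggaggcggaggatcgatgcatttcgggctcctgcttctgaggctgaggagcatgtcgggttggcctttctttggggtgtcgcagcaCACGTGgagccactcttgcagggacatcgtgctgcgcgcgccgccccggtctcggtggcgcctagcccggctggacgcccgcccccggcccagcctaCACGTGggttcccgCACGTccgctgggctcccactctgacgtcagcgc
P4ha1: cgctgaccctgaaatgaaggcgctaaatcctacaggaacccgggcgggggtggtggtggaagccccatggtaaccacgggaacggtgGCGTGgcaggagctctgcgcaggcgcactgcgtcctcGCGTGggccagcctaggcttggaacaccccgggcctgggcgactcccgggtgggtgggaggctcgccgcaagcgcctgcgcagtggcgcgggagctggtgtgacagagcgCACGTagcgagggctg
Gpi1: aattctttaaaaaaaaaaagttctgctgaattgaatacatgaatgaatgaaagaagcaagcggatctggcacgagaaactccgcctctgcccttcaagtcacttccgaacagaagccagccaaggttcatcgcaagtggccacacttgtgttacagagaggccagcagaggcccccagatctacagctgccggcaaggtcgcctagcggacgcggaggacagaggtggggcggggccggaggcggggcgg
Ldha has 5 matches here and 1 in the window of its other start, which is not shown. P4ha1 has 3 and Gpi1 0. Whether the number of matches goes with the log2 ratio was not tested. Of the 7 genes past the fold, 5 hold a match in at least 1 of their windows, as do 15 of the 17 tested list genes that have a window. The share of all 27025 genes in the table with a match is 41.5%. The search reads letters only and shows neither binding nor its absence.

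**Figure D4:**
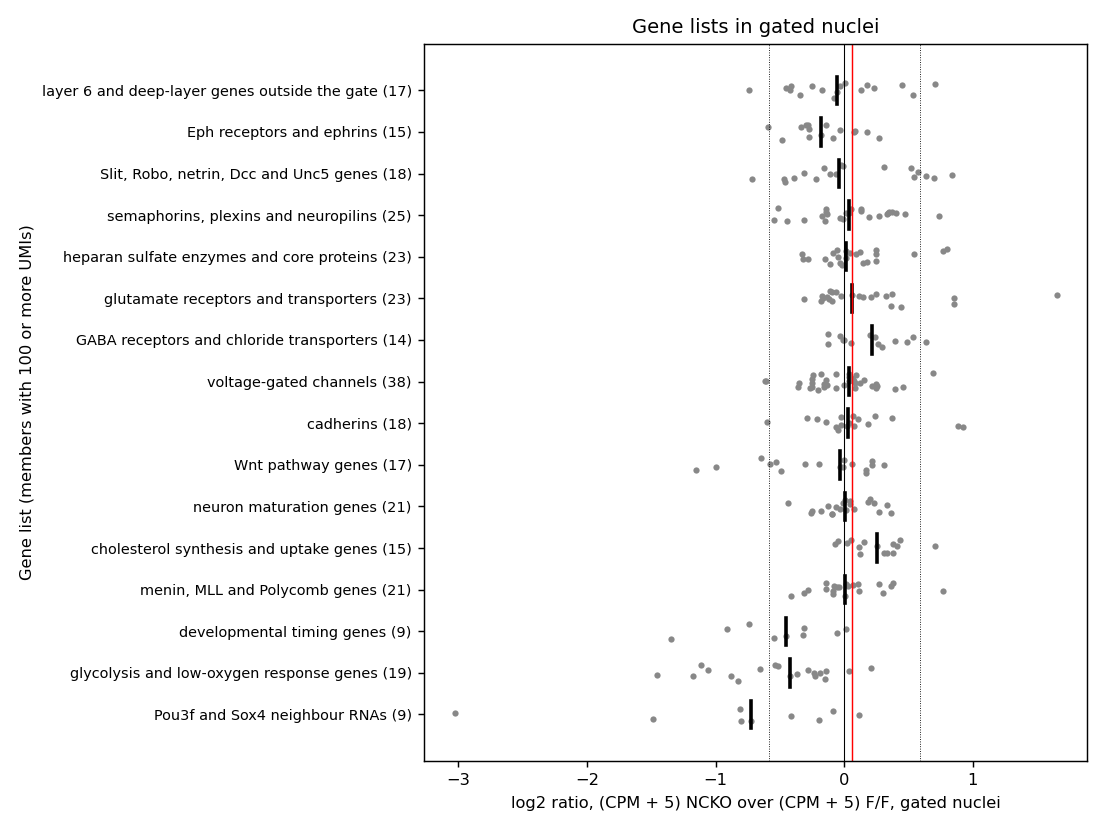
Each point is a gene's log2 ratio of NCKO-labelled over F/F-labelled gated nuclei, in rows by gene list with the number tested, and the thick bars are medians. The red line is the median of all genes at 0.06, the dotted lines mark 1.5-fold, and the 3 rows at the bottom have medians of -0.46, -0.43 and -0.72.

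Most genes that define deep-layer identity were near the background. Of 17 deep-layer genes outside the rule, Crym, a thyroid hormone binding protein gene, was past the fold higher (13.0 and 24.4 CPM, 0.71) and Nfia lower, and the median was -0.05. Sox5 was at -0.43, Ntsr1, a neurotensin receptor gene of layer 6, at -0.35, Syt6 at -0.25, Fezf2 at 0.00 and Tbr1 at 0.18. Sox5 was below 0 in all 4 kept sub-clusters, where it was at -0.28, and Syt6 was at -0.05 there. Of 15 deep-layer genes tested over the kept sub-clusters, 1 was past the fold higher and 0 lower, beside 3.18% and 2.64% of all genes. Their median there was -0.05. Rprm was at 0.45 in gated nuclei and at 0.80 in the kept sub-clusters, and Fezf2 was at 0.47 in the latter. None of 21 neuron maturation genes was past the fold, beside 2.88% of all genes higher and 1.64% lower. Their median was 0.00, with Neurod2 at -0.03 and Satb1 lowest at -0.44.

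Some genes of the synapse and of adhesion were past the fold higher, beside 2.88% of all genes. The AMPA receptor gene Gria1 was at 274 and 498 CPM (0.85) and was above 0 in all 9 sub-clusters, and the delta receptor gene Grid1 was at 217 and 396 CPM (0.85). Over the kept sub-clusters both were again past the fold at 0.94 and 0.88, and at 0.63 and 0.62 with the weighting. These and Grik1 were the 3 of 23 glutamate receptor and transporter genes past the fold, and the median was 0.06. Cntnap2, a neurexin family gene linked to potassium channel clustering, was at 471 and 872 CPM (0.88), above 0 in all 9 sub-clusters, at 0.91 in the kept ones and at 0.48 with the weighting, which is short of the fold. It was the highest of 36 synaptic adhesion genes, whose median was 0.05. Cntnap5a (0.82) and Il1rapl2 (0.60) were the others past the fold. The cadherin gene Cdh4 was at 239 and 444 CPM (0.88), at 1.16 in the kept sub-clusters, at 0.32 with the weighting, and above 0 in all 9. Of 18 cadherin genes, Cdh4 and Pcdh11x (0.93) were past the fold higher and Cdh9 (-0.60) lower, with a median of 0.03. In the kept sub-clusters 3 of 16 were past it higher and 2 lower, beside 3.18% and 2.64% of all genes there, with a median of -0.14. Cntnap2 was at 0.61 and Cdh4 at 0.24 in other nuclei.

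Ion channel and inhibitory receptor genes were mostly short of the fold, as were most genes. Of 38 voltage-gated channel genes, 1 was past the fold higher and 2 were past it lower, beside 2.88% and 1.64% of all genes. Their median was 0.04, beside 0.06 over all genes. Kcnq5 was higher (837 and 1354 CPM, 0.69), and Kcnh5 was among the lower (120 and 76.6 CPM, -0.61). Kcnq5 was at 0.19 and Kcnh5 at -0.89 in the kept sub-clusters, but with the weighting they were at -0.14 and -0.19. Kcnh5 was past the fold in 8 of the 15 other settings. Gabrg3 was the one GABA receptor gene of 14 past the fold (0.63), and the median was 0.22.

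Heparan sulfate enzymes, the family of the gate gene Hs3st4, had a median of 0.02 over 23 genes. Ndst3 was at 0.80 and Hs6st3 at 0.77, the latter at -0.39 in the kept sub-clusters. Of 17 Wnt pathway genes 3 were past the fold lower, beside 1.64% of all genes. Below 0 were 11, beside 39.2% of all genes, and the median was -0.03. The 3 past the fold were the secreted Wnt inhibitor gene Sfrp1 (26.7 and 9.26 CPM, -1.15), the Wnt receptor gene Ror2 (43.4 and 19.2 CPM, -1.0) and the agonist gene Rspo3 (82.8 and 51.1 CPM, -0.65), at -1.33, -0.88 and -0.88 in the kept sub-clusters. Cholesterol genes had a median of 0.26 over 15 tested, with 13 above 0, beside 60.8% of all genes. Past the fold higher was 1, beside 2.88% of all genes, and the median in other nuclei was 0.25. Among 21 menin, MLL and Polycomb genes, Jund alone was past the fold (11.4 and 22.8 CPM, 0.76), beside the same 2.88% higher, and the median was 0.00.

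Several of the 15 lowest genes outside these lists rest on few nuclei or on uncertain counts. Ttr, the transthyretin gene of choroid plexus, was at -4.56, but 395 of its 414 F/F-labelled UMIs lay in 1 nucleus, and it was at -0.95 without the top nucleus of each library. The serotonin receptor gene Htr2c, at 72.8 and 21.5 CPM (-1.55), had 84 of 218 UMIs in 1 nucleus and 203 of them in sub-cluster 1, and was at -0.64 in the kept sub-clusters from 11 and 6 UMIs. Gm3739 (-1.84) and Gm3095 (-1.31) belong to a family of near-identical copies on chromosome 14, Gm15680 (-1.27) overlaps Cdh8, and Gm15594 (-1.21) lies antisense to Cttnbp2. Reads of such genes cannot be assigned with certainty. Slc24a2, a sodium, calcium and potassium exchanger gene, was at 208 and 93.1 CPM (-1.12) and at -1.54 in the kept sub-clusters, but had 0 UMIs in F/F-labelled and 52 in NCKO-labelled nuclei of sub-cluster 3.

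Among the 15 highest, a few were carried by sub-clusters outside the 4 kept ones. Grik1, a kainate receptor gene, was at 46.7 and 158 CPM (1.66), with 836 of its 888 NCKO-labelled UMIs in sub-cluster 1 and 382 in 1 nucleus, and it was at -0.24 in the kept sub-clusters. Alk, which encodes a receptor tyrosine kinase, was at 5.01 and 33.5 CPM (1.94), and of its 188 NCKO-labelled UMIs 88 lay in sub-cluster 1 and 74 in sub-cluster 5. It was at 0.55 in the kept sub-clusters, from 3 and 11 UMIs.

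Others were higher in the kept sub-clusters as well. Sgcd, which encodes delta-sarcoglycan, was at 178 and 412 CPM (1.19), and at 131 and 335 CPM (1.33) in the kept sub-clusters, at 1.02 with the weighting, and above 0.97 in each of the 4. Thsd7b, a thrombospondin repeat gene, was at 126 and 309 CPM (1.26) and at 1.56 in the kept sub-clusters, but was at 0.41 with the weighting, and sub-cluster 7, of which it is a leading gene, held 838 of its 1738 NCKO-labelled UMIs. Itprid1 was at 12.4 and 34.4 CPM (1.18) and at 2.0 in the kept sub-clusters, with 1.93 after weighting. The BMP antagonist gene Vwc2 (1.29), the adenylate kinase gene Ak9 (1.13) and the disulfide isomerase gene Pdia5 (1.13) were at 1.47, 1.41 and 1.20 there, and at 0.91, 1.29 and 1.33 with the weighting. Serpine2, a protease inhibitor gene, was at 1.15 and 1.0, and Ebf1 at 1.15 and 1.25, but with the weighting they were at 0.53 and 0.52. L3mbtl4 (1.20) and Brinp3 (1.12) were at 0.54 and 0.37 in the kept sub-clusters and so not past the fold. The noncoding RNA genes Gm27166, Gm32647 and 6530403H02Rik were at 1.79, 1.71 and 1.22, and at 1.47, 1.13 and 0.66 in the kept sub-clusters. With the weighting Gm27166 was at 0.43 and 6530403H02Rik at 0.58, both short of the fold, while Gm32647 was past it in all 15 other settings. In the kept sub-clusters Gm27166 had only 5 and 38 UMIs and Gm32647 5 and 28. Vwc2, Pdia5 and Serpine2 had 7, 6 and 8 F/F-labelled UMIs there.

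**Figure D5:**
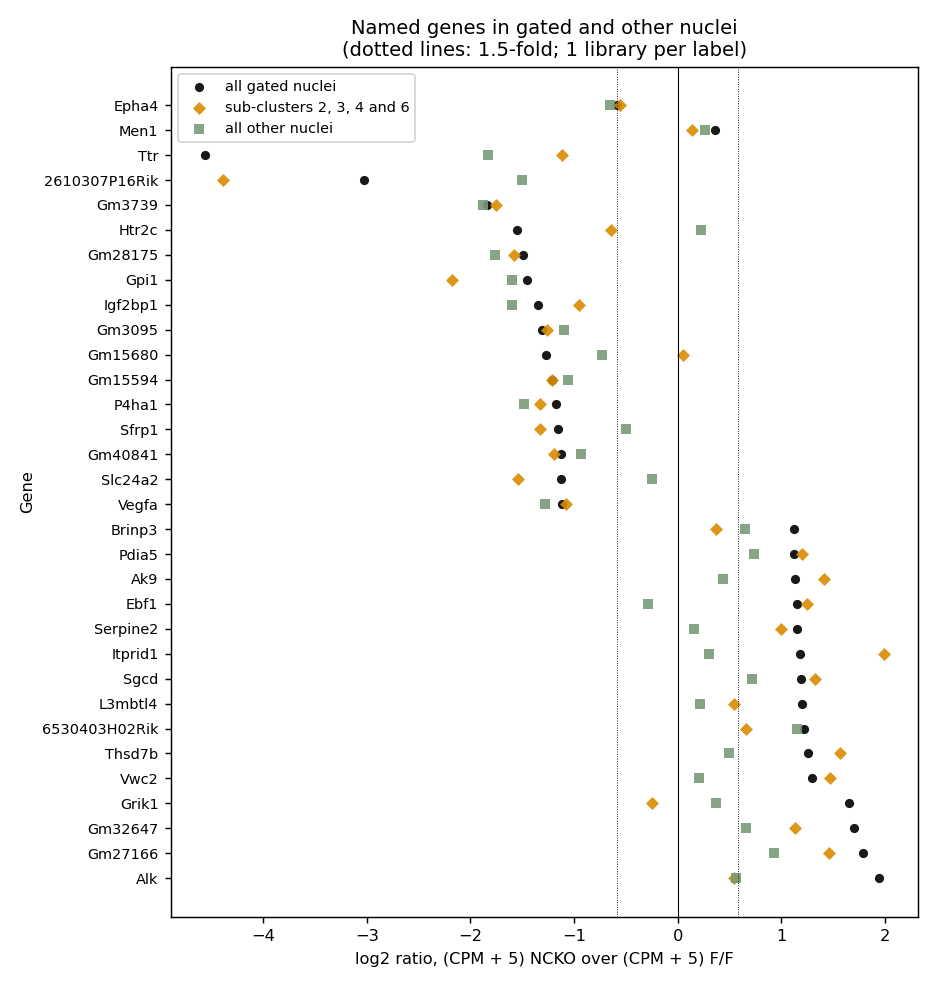
Each row is a gene and the x axis is its log2 ratio of NCKO-labelled over F/F-labelled nuclei, in all gated nuclei (black circles), sub-clusters 2, 3, 4 and 6 (orange diamonds) and all other nuclei (green squares). The 3 symbols lie close together for Epha4, P4ha1 and Vegfa, and apart for Grik1, Htr2c and Gm15680.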

How the data were processed

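Nuclear RNA was measured in 2 libraries, 1 per genotype label. The authors deposited raw UMI counts for each gene in each barcode, produced by Cell Ranger 6.1.0, per the file headers. The submitters' processing notes name the mouse build mm10 and Seurat, without a role. Whether counting used strand is not known here. Totals were 30116311 and 50115162 UMIs in 6477 and 10750 barcodes. The 10 and 19 barcodes under 500 genes were left out.

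UMIs of gated nuclei were summed per library and divided by all their UMIs to give CPM, with exact Poisson intervals for levels, exact conditional binomial intervals for ratios and exact Clopper-Pearson intervals for shares. Intervals cover counting error only. Genes needed 100 UMIs over both libraries, and a pseudocount of 5 CPM was added, which draws low genes towards 0. Gate and excluded genes were left out, and 1.5-fold is a rule of size. For comparison, an upper-layer rule asked for UMIs of 3 of Cux2, Rorb, Inhba, Unc5d, Lhx2 and Mdga1 and none of Gad2, Slc1a3, Tcerg1l or Nxph4. A layer 5 rule asked for Tcerg1l and 2 of Fezf2, Bcl11b, Ldb2, Etv1, Crym and Pcp4 and none of Gad2 or Slc1a3.

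Gated nuclei were clustered jointly on 2000 variable genes and 20 principal components by the Leiden method (resolution 0.6) in Python 3.11.15 with numpy 2.4.6, pandas 2.3.3, scipy 1.17.1, igraph 0.11.9, leidenalg 0.10.2 and scikit-learn 1.9.0. Doublets were scored against simulated pairs, and nuclei with the highest scores were left out only as an alternative. The scripts were tested on simulated data. Named were Men1, Epha4, the 15 highest and 15 lowest log2 ratios, the 12 genes highest over other nuclei, and members of the 33 gene lists, of which some are not reported here. The gated nuclei and the lists were chosen with earlier results of these data known. The rule that keeps 4 sub-clusters was set after the data were seen. Of 33938 gene IDs, 32241 were found in GENCODE vM21, used for positions, and promoter windows come from RefSeq (GRCm38.p6).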

Additional observations from a re-analysis of the deposited data

Results flagged for a closer look

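Log2 ratios of NCKO-labelled over F/F-labelled nuclei pointed opposite ways in gated nuclei and in a comparison rule for 4 genes. Htr2c was at -1.55 in gated nuclei and at 0.94 under the upper-layer rule. Rspo3 was at -0.65 and 0.78 in the same groups. Cdh9 was at -0.60 in gated nuclei and at 0.71 under the layer 5 rule. The phosphatase gene Inpp4b was at 0.87 and -1.34 in these. With 1 library per label the differences were not tested. In the kept sub-clusters Htr2c was at -0.64, Rspo3 at -0.88, Cdh9 at -0.53 and Inpp4b at 0.05.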

How the results depend on the processing

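No paired analysis was possible because there is 1 library per label. Of 32 named genes past 1.5-fold in gated nuclei, 30 kept their direction and 17 stayed past the fold in all 15 alternative settings of the processing. The number of higher genes (250) was 116 without the exclusion by 4 genes, 434 with CPM + 1, 67 with CPM + 20, 165 after centring on the median, 427 with at least 20 UMIs and 436 with no minimum. The number of lower genes (142) was 54 with CPM + 20, 258 with at least 20 UMIs, 275 with no minimum and 221 with the 4 kept sub-clusters weighted in the NCKO-labelled library as in the F/F-labelled one. That weighting and the restriction to the kept sub-clusters were chosen after seeing the data. The ratio of shares was 0.958 in the kept sub-clusters.

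Among the genes reported here that were past 1.5-fold in gated nuclei, log2 ratios of opposite sign were found in the kept sub-clusters for Gm15680 (0.048), Grik1 (-0.24), Cntn3 (-0.53), Hs6st3 (-0.39), Rarb (-0.038), Slit3 (-0.40) and Unc5c (-0.046). With the weighting they were found for Gm15680 (0.42), Grik1 (-0.67), Cdh9 (0.095), Cntn3 (-0.11), Hs6st3 (-0.35), Il1rapl2 (-0.38), Kcnq5 (-0.14), Pcdh11x (-0.12), Rarb (-0.55), Reln (-0.20), Sema3a (-0.20), Slit2 (-0.16), Slit3 (-0.083) and Unc5c (-0.41). Reported genes short of the fold turned too, among them Men1 (-0.31), Pou3f3 (0.41), Syt6 (0.34) and Efna5 (0.16) with the weighting and Epha6 (-0.86), Efnb2 (-0.08) and Dpp10 (0.16) in the kept sub-clusters. The cause was not tested. Epha4 ran from -0.69 to -0.50. The glycolysis and low-oxygen median ran from -0.50 to -0.29 and the developmental timing median from -0.64 to -0.32 over 16 settings. That of the listed Pou3f, Sox and noncoding RNA genes ran from -0.78 to -0.048. With few UMIs per nucleus, genes under 100 UMIs in gated nuclei were given levels at most, and no log2 ratio by name. Some ratios in the kept sub-clusters rest on fewer UMIs, such as that of Sfrp1 on 46 and 19. Sub-clusters with few nuclei in 1 library give wide intervals.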
